A study of Capra hircus with 3 samples.

Results

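Keratin-associated proteins (KAPs) were examined in the skin of Arbas Cashmere goats kept under a short photoperiod or under natural conditions. A probe was taken when its description on the Agilent sheep array names a keratin-associated, high-sulfur or glycine and tyrosine-rich protein, or when it is one of 5 records named beforehand. This gave 7 of the 15008 non-control probes, each printed on 1 spot. These ratios were known when the records were named, so the ratios of the 7 probes are given as a description, and a p-value is given for none of them. A further 4 probes, whose descriptions name KAPs in other words ("ultra high-sulphur", "high-glycine tyrosine", KAP5), are described beside them. They were picked by name after the intensities had been seen.

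The 6 goats were 2-year-old females of 1 strain, 3 in each group. The test goats were let out to graze in the daytime and spent the rest of each day in a dark shed, and the control goats grazed under natural light. The label in the array titles calls the control a long photoperiod, and the other labels call it natural. Each of the 3 arrays compared 1 test goat (Cy5) with 1 control goat of the same parent (Cy3), and the dyes were swapped on 0 arrays, so that dye and photoperiod cannot be told apart for any probe.

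KAPs are the small proteins that fill the space between the keratin filaments of the hair and wool shaft. They are made while a follicle is growing a fibre. The study cites earlier work that places KAP7 in the cortex, the inner root sheath and the matrix of the secondary follicle. High sulfur and ultra-high sulfur KAPs are rich in cysteine and cross-link the filaments through disulfide bonds. High glycine-tyrosine KAPs are rich in the residues of their name, and their share of the fibre varies widely between species and between kinds of wool. The labelled sample is whole skin, so the place of expression within the follicle was not measured, and a larger number of cells that make a transcript cannot be told apart from more transcript per cell.

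The members fall into 2 families. The high glycine-tyrosine family was represented by KAP6 (EE752086) and KAP7 (EE757001), sheep transcripts that the array does not name and the study's text does, and by KAP8-1 (TC66218). The high sulfur family was represented by KRTAP4.3 (NM_001161382), a KAP4 protein of the cortex, by TC71297, which the array calls a partial match to rat high sulfur protein B2E, and by BIIIB4 (NM_001009475) and a BIIIB3 pseudogene (LOC100188976, M21102), both of the KAP3 family. The related probes were those of a goat high-glycine tyrosine keratin type II.2 (TC64688), of KRTAP5.4 (NM_001009398) and KRTAP5.5 (X73435), which are KAP5 proteins known from the fibre cuticle, and of an ultra high-sulphur keratin (LOC443402, NM_001009807). All 11 probes are unmapped in the array files and 0 matched the goat gene table (assembly ARS1.2), so no genome position is given.

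All probes are 60-base sheep oligonucleotides, hybridised here with goat RNA. The probe of KRTAP4.3 is shown whole because it lies within the repeats of the protein: read from its first base it has 0 stop codons, and 6 of its 20 codons, in capitals, are the cysteine codons TGC or TGT.
KRTAP4.3: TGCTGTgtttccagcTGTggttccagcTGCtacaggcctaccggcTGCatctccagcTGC
KAP4 genes are many and similar, so this probe may also bind transcripts of other KAP4 genes. The probes of KAP7, KAP8-1 and TC71297 hold AATAAA, the signal that precedes the poly(A) tail, and 30 bases around it are shown with the signal in capitals.
KAP7: gctgttcatcacAATAAAtccaattcattc
KAP8-1: tgtcaaattctcAATAAActtgtctcaacc
TC71297: ccccacgtgagccgAATAAActgtgctttc
The same letters were found in KRTAP5.4 and KRTAP5.5, in 5.63% of all probes and, on the opposite strand, in 3.70% of all probes. The match is of letters only, and the place of these probes within their transcripts was not measured. None of the 11 probes shared a run of 20 bases with any other probe on the array, and the longest run shared between any pair of them was 9 bases.

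Non-control spots had a median Cy5 intensity of 4587 to 7120 and a median Cy3 intensity of 2688 to 3911 over the arrays, against median local backgrounds of 23.5 to 42, and 0 spots were saturated. Log2 ratios of Cy5 over Cy3 were computed after normexp background correction and loess normalization, with values above 0 where the short photoperiod goat had more signal. The median ratio over the 14977 tested probes was -0.0067. With limma, 1 of these probes (0.00668%) had a Benjamini-Hochberg adjusted p under 0.05 and 2765 an unadjusted p under 0.05, and the called probe was not a KAP. An exact test over 3 arrays cannot give a two-sided p under 0.25.

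Of the 7 members, 5 had signals well above background on every array, in Cy5 and in Cy3. BIIIB4 was well above background on 1 of 3 arrays in each channel, with Cy5 signals of 54.4, 214 and 109 and Cy3 signals of 43.7, 86.9 and 69.9 on replicates 1, 2 and 3. On replicate 2, the array that measured it, its log2 ratio was 0.67. The BIIIB3 pseudogene was well above background on 0 arrays in either dye, with Cy5 signals of 96.8 to 105 and Cy3 signals of 51.2 to 57.3, and no ratio is given for it. Outlier flags fell on 2 of the members' spots, both for uneven pixels in Cy3, that of KAP8-1 on replicate 3 and that of KRTAP4.3 on replicate 1. These spots were left out of the means, which for these probes rest on 2 arrays.

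All 3 high glycine-tyrosine members had ratios above 0 on every array that measured them. The log2 ratio of KAP7 was 2.41 on replicate 1, 3.46 on replicate 2 and 3.25 on replicate 3, with a mean of 3.04 ± 0.56 (SD, n = 3), a fold change of 8.21. Its normalized log2 intensity was 16.24, 16.13 and 15.94 in the short photoperiod goats and 13.83, 12.67 and 12.69 in the natural photoperiod goats. The groups did not overlap, and the natural photoperiod goat of replicate 1 was the highest of its group.

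KAP8-1 had ratios of 2.91 and 4.81 on replicates 1 and 2, a mean of 3.86 ± 1.35 (SD, n = 2) and a fold change of 14.5. The flagged spot of replicate 3 read 2.91 when it was kept, and the mean over 3 arrays was then 3.54. The intensity was 16.46 and 16.49 in the short photoperiod goats of the first pair of arrays and 13.55 and 11.68 in their natural photoperiod partners. The short photoperiod goats were nearly equal, and the wider ratio of replicate 2 went with the lower natural photoperiod goat. On these arrays alone the fold change of KAP8-1 was 7.49 and 28.1.

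KAP6 had ratios of 1.11, 0.79 and 3.41, a mean of 1.77 ± 1.43 (SD, n = 3) and a fold change of 3.40. Its intensity was 15.54, 15.53 and 15.82 in the short photoperiod goats and 14.44, 14.75 and 12.42 in the natural photoperiod goats. Here the groups did not overlap either, and the low value belonged to the natural photoperiod goat of replicate 3. Without replicate 3 the mean of KAP6 was 0.95, below the 2-fold line.

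In all 3 probes the natural photoperiod goats differed more among themselves than the short photoperiod goats. The SD of the log2 intensity was 0.67 against 0.15 for KAP7, 1.33 against 0.023 for KAP8-1 (n = 2 in each group) and 1.27 against 0.16 for KAP6. The same held for the high sulfur probes TC71297 (0.49 against 0.078), KRTAP5.4 (0.57 against 0.18) and KRTAP5.5 (0.58 against 0.21). TC64688 (0.45 against 0.49) and KRTAP4.3 (0.0087 against 0.17, n = 2 in each group) went the other way. The share of all probes with this pattern is not given, and group and dye channel cannot be told apart. The natural photoperiod goat with the lowest value was that of replicate 2 for KAP8-1 and that of replicate 3 for KAP6, while for KAP7 these goats were nearly equal.

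The related probe TC64688, goat high-glycine tyrosine keratin type II.2, had ratios of 0.56, 2.19 and 2.02, a mean of 1.59 ± 0.89 (SD, n = 3) and a fold change of 3.01. Its intensity was 13.97, 14.69 and 14.91 in the short photoperiod goats and 13.41, 12.51 and 12.89 in the natural photoperiod goats, without overlap. It was smallest on replicate 1, where KAP7 was also smallest, and on replicate 2 it lay above KAP6.

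**Figure D1:**
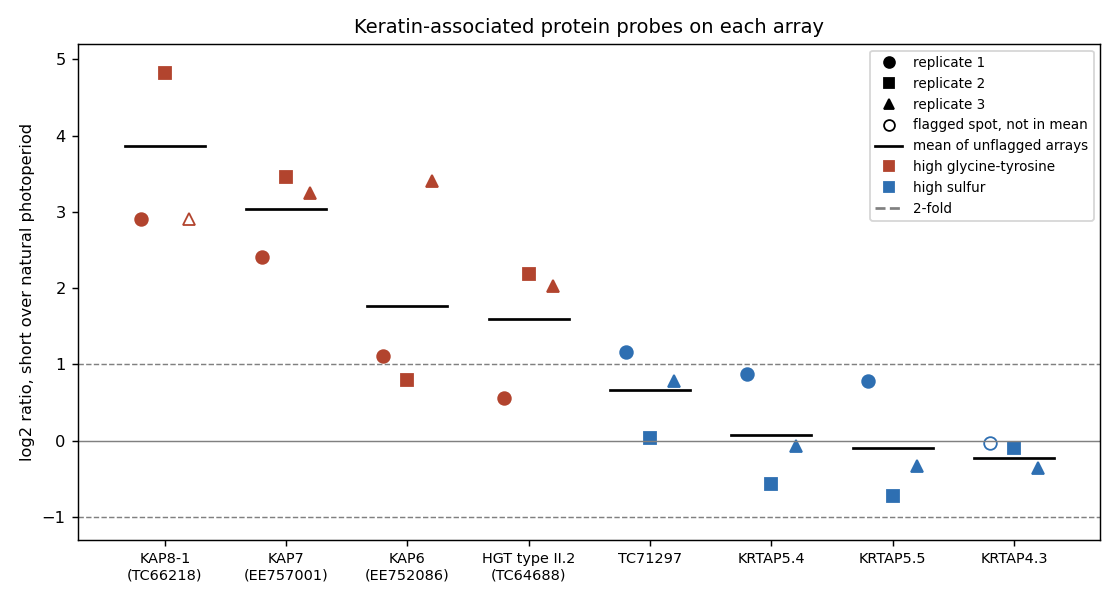
Log2 ratio (vertical axis) of the 8 KAP probes well above background on every array (horizontal axis), with 1 symbol for each array, open where the spot was flagged, and a black bar for the mean of the unflagged arrays. HGT type II.2 is TC64688. The 4 high glycine-tyrosine probes have means of 1.59 to 3.86, and the 4 high sulfur probes have means of -0.23 to 0.66.

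Of the high sulfur members, TC71297 had ratios above 0 on every array and KRTAP4.3 did not. KRTAP4.3 had ratios of -0.10 and -0.36 on replicates 2 and 3, a mean of -0.23 ± 0.18 (SD, n = 2), and -0.03 in the flagged spot of replicate 1. Its intensity was 16.71 and 16.46 in the short photoperiod goats and 16.81 and 16.82 in the natural photoperiod goats. With each array centred on its median in place of loess, the sign of KRTAP4.3 turned, to a mean of 0.99, so no direction is given for it.

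TC71297 had ratios of 1.16, 0.04 and 0.78, a mean of 0.66 ± 0.57 (SD, n = 3) and a fold change of 1.58. Its intensity was 16.03, 15.87 and 15.94 in the short photoperiod goats and 14.87, 15.83 and 15.16 in the natural photoperiod goats. The groups did not overlap, but the lowest short photoperiod goat and the highest natural photoperiod goat, both of replicate 2, were nearly equal. Under median centring its mean was 1.40.

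KRTAP5.4 and KRTAP5.5 had ratios of both signs, above 0 on replicate 1 and below 0 on the other arrays. KRTAP5.4, the mean of 5 spots, had ratios of 0.87, -0.57 and -0.07 with a mean of 0.08 ± 0.73 (SD, n = 3), and KRTAP5.5 had 0.78, -0.73 and -0.34 with a mean of -0.10 ± 0.78. The SD between the 5 spots of KRTAP5.4 was 0.056 to 0.086 within an array, far below the SD of 0.73 between arrays. The probes of these KAP5 genes, which shared at most 9 bases with any other KAP probe, differed from each other by 0.09, 0.17 and 0.26 on the respective arrays. Under median centring both means lay above 0, at 0.61 and 0.41, and without replicate 1 at -0.32 and -0.53. LOC443402, whose 5 spots were all well above background in Cy5 on 2 of 3 arrays, had a mean of -0.10 ± 0.08 and 1 flagged spot on replicate 2.

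**Figure D2:**
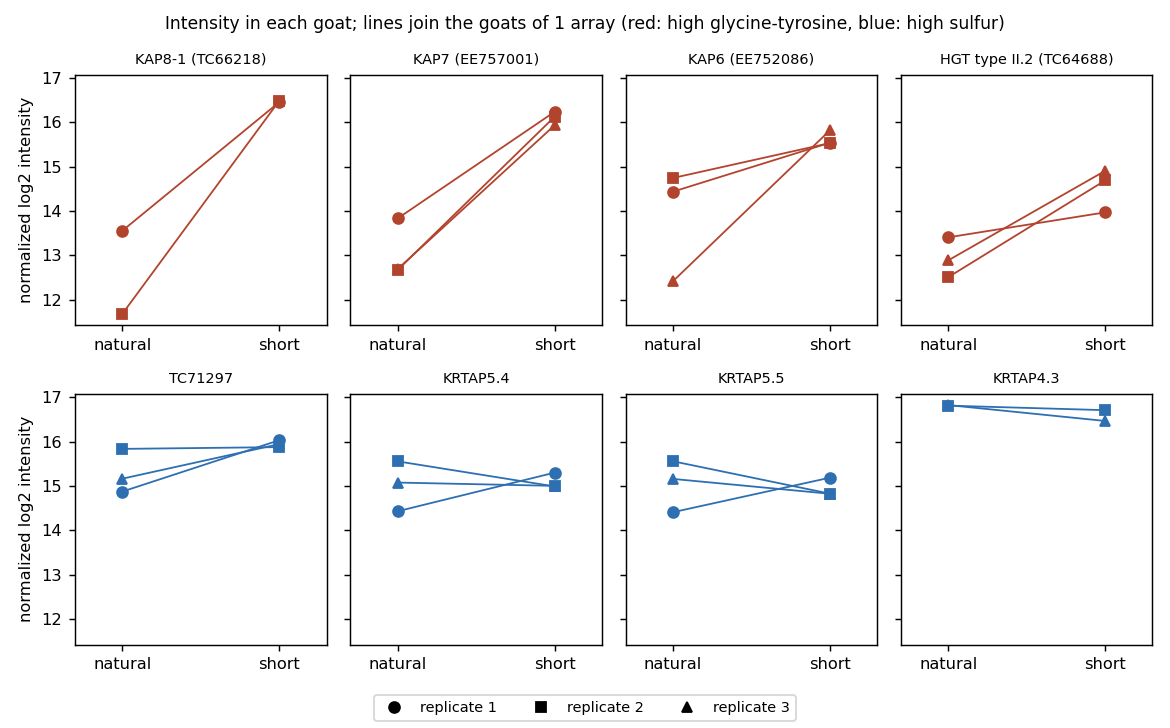
Normalized log2 intensity (vertical axis) of each goat for the same 8 probes, with a line joining the natural and the short photoperiod goat of 1 array and flagged spots left out. The short photoperiod goats lie close together for KAP7 (15.94 to 16.24), KAP8-1 (16.46 and 16.49) and KAP6 (15.53 to 15.82). Their natural photoperiod partners lie at 12.67 to 13.83, at 11.68 and 13.55, and at 12.42 to 14.75. The natural photoperiod goats also spread more for TC71297, KRTAP5.4 and KRTAP5.5, and not for TC64688 or KRTAP4.3.

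The families were compared on each array by the median ratio of the members well above background. The high glycine-tyrosine median was 2.41, 3.46 and 3.33 on replicates 1, 2 and 3, and the high sulfur median was 1.16, -0.03 and 0.21. The difference was 1.25, 3.49 and 3.12, with a mean of 2.62 ± 1.20 (SD, n = 3), and lay above 0 on all 3 arrays. KAP6 and KAP7 entered only as records named with their ratios known, and the study's text reports both as higher. The sign of the difference was thus partly set by the choice of members and is a description only. With the related probes added the difference was 0.89, 3.16 and 3.45, with a mean of 2.50 ± 1.40. On replicates 2 and 3 every high glycine-tyrosine member was above every high sulfur member. On replicate 1 KAP6, at 1.11, lay just below TC71297, at 1.16. Flags left 1 high sulfur member on replicate 1 and 2 high glycine-tyrosine members on replicate 3. Median centring moved the high sulfur median of the means from 0.21 to 1.20 and left a family difference of 2.10.

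A mean ratio of at least 2-fold higher was found for 3 of the 7 members, KAP6, KAP7 and KAP8-1, where 64 of all tested probes (0.427%) passed this rule. A mean at least 2-fold lower was found for 0 members, where 62 probes (0.414%) passed. These shares are set side by side only, since the members were named with their ratios known. Ordered by mean ratio from the highest, KAP8-1 was number 2 of 14977 probes, KAP7 number 3, KAP6 number 11 and TC64688 number 15. TC71297 was number 295 and KRTAP4.3 number 12233. KAP7 and KAP8-1 were at least 2-fold higher on every array with an unflagged spot, as were 18 of all tested probes, and 0 members and 6 probes were at least 2-fold lower on every such array. Of the members with 3 unflagged arrays, KAP7, KAP6 and TC71297 had every short photoperiod value above every natural photoperiod value, as had 958 of 14868 probes (6.44%). TC71297 did so narrowly, by 15.87 against 15.83. BIIIB4 and the BIIIB3 pseudogene, the other members with 3 unflagged arrays, had overlapping groups.

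**Figure D3:**
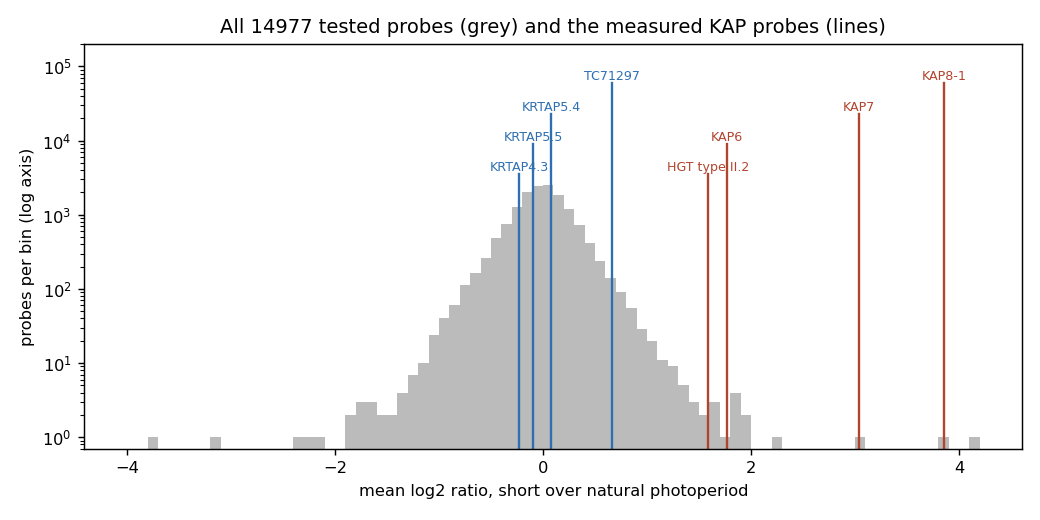
Distribution of the mean log2 ratio of all 14977 tested probes (grey, horizontal axis in bins, number of probes on a log axis) with the 8 measured KAP probes as lines, red for high glycine-tyrosine and blue for high sulfur. KAP7 and KAP8-1 lie at 3.04 and 3.86, and the blue lines lie between -0.23 and 0.66.

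The base content of the probes was set beside these ratios. The 4 high glycine-tyrosine probes had 35% to 38.3% G and C, and so did KRTAP5.4, at 35%, while KRTAP5.5, TC71297 and KRTAP4.3 had 48.3%, 53.3% and 60%. Over all tested probes the median ratio was 0.01 for the 2495 probes with up to 35% G and C and -0.01 for the 2832 probes with 35% to 40%, and 0.641% and 0.318% of them were at least 2-fold higher. The part of base content in the KAP ratios was not tested.

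Keratins are represented by 21 other probes, all well above background. They include hair keratins, whose filaments KAPs embed, and keratins outside the shaft, such as KRT14 and keratins 15 and 19. Several keratin genes have repeated probes, so the probes are not separate genes. Of the 21 probes 18 had a mean above 0, beside 48.9% of all tested probes. The median of the 21 probes was 0.77, with a range of -0.73 to 1.28. At least 2-fold higher were 5 of them, beside 0.427% of all tested probes. The leading ones were V15, the type I wool keratin 8c1, at 1.28 ± 0.85 (SD, n = 3), keratin 34 at 1.19 ± 0.29, K27 at 1.19 ± 0.75, K2.12, a type II hair keratin, at 1.16 ± 1.11, and a probe of IRSa1, LOC443079, at 1.08 ± 0.83. The study already lists the genes of these 5 probes as higher on these arrays, so their count is not a separate result. Each of the 4 high glycine-tyrosine probes had a higher mean than any keratin probe, but this order did not hold on every array. On replicate 1 TC64688, at 0.56, lay below keratin 34, at 1.00. On replicate 2 KAP6, at 0.79, lay below keratin 34, at 1.04. The median of the keratin probes was 0.47, 0.38 and 1.38 on replicates 1, 2 and 3. Replicate 3 gave the highest ratio for 14 of the 18 keratin probes with 3 arrays and for KAP6, and not for KAP7 or TC64688.

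The probes nearest to KAP6 and KAP7 were sought among 13454 other probes by the Euclidean distance over the 3 log2 ratios. Nearest to KAP6 were the unnamed sheep transcript EE843999, at a distance of 1.03, K2.12 at 1.15 and V15 at 1.18. K2.12 and V15 shared the shape of KAP6, with 2.45 and 2.25 on replicate 3 and at most 0.85 on the others. Nearest to KAP7 were EE813194 at 2.14, EE844179 at 2.44 and H19 (AF105429), a non-coding RNA, at 2.73. All 3 lay below KAP7 on every array, with 0.92, 2.30 and 2.24 for EE813194, and within the KAPs TC64688 lay at 2.55 from KAP7. Only 3 values enter each distance.

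Genes that act in the hair matrix and shaft were taken from a list of symbols, chosen with earlier results of these data known. Of its 17 regulators 6 were found on the array, with 12 probes well above background. Of these probes 8 were higher and 4 lower, with a median of 0.61 beside -0.0067 over all tested probes. The 12 probes belong to these 6 genes, and the study already lists JAG1 and TP63 as higher on these arrays. The median is therefore a description and not a separate result. The list held 0 probes at least 2-fold changed. HOXC13, a transcription factor of the hair shaft that acts on keratin genes, had means of 0.87 ± 0.66 and 0.83 ± 0.64 (SD, n = 3) over its probes, both highest on replicate 3, at 1.63 and 1.56. TP63, a factor of the epithelial progenitors, had means of 0.91 and 0.98, and the Notch ligand JAG1 had 0.89 and 0.77. SHH, a signal of the growing bulb, had 0.43 and 0.45. GATA3, a factor of the inner root sheath, had -0.09 and -0.12, and BMP4 had -0.23 for both of its probes. Of a list of 13 other proteins of the shaft and inner root sheath only PADI3, an enzyme that modifies them, was found by its symbol. Its probes had 0.86 and 0.88, again highest on replicate 3, at 1.51 and 1.56. Metallothionein-4, also in that list, is on the array under another name (LOC100125618), which the match by symbol missed. A probe of it had a mean of 0.86 ± 1.24 (SD, n = 3), and the study lists this gene among its higher ones.

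Markers of other skin cells are set beside the KAPs. For the counts below, 48.9% of all tested probes had a mean above 0. All 11 leukocyte probes well above background (CD14, CD3E, FCER1G, FCGR1A, ITGAM and LYZ) had a mean below 0, with a median of -0.37. Most of these genes have repeated probes, so the probes are not separate genes. The 1 probe at least 2-fold lower, beside 0.414% of all tested probes, was that of FCGR1A, which the study already lists as lower on these arrays. The log2 of the summed intensities of the leukocyte probes was 16.72 to 16.94 in the short photoperiod goats and 17.12 to 17.56 in the natural photoperiod goats. This value, called the sum below, rests mostly on the brightest probes of a list. The share of all probes with every natural photoperiod value above every short photoperiod value is not given. The sums are therefore a description only. The sebaceous list (FASN, PLIN2, PPARG, SCD) had 4 of 5 probes lower and a median of -0.41, with sums of 16.57 to 16.93 and 17.02 to 17.79. The adipose list (LEP, LPL, PLIN1) had 4 of 6 lower and a median of -0.37, with sums of 11.69 to 11.77 and 11.90 to 12.56. The epidermis list was measured by KRT14 alone, with a mean of 0.68 and intensities of 16.13 to 16.44 and 15.19 to 15.97. Every short photoperiod value of KRT14 was above every natural photoperiod value, as for 6.44% of the probes with 3 unflagged arrays. The dermal fibroblast list had 5 of 7 lower with a median of -0.23, the blood list 2 of 2 lower with -0.23 and the melanocyte list 4 of 4 lower with -0.18, with overlapping sums, and the skeletal muscle list was found by 0 symbols. How far a different make-up of the skin enters the KAP ratios was not tested.

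**Figure D4:**
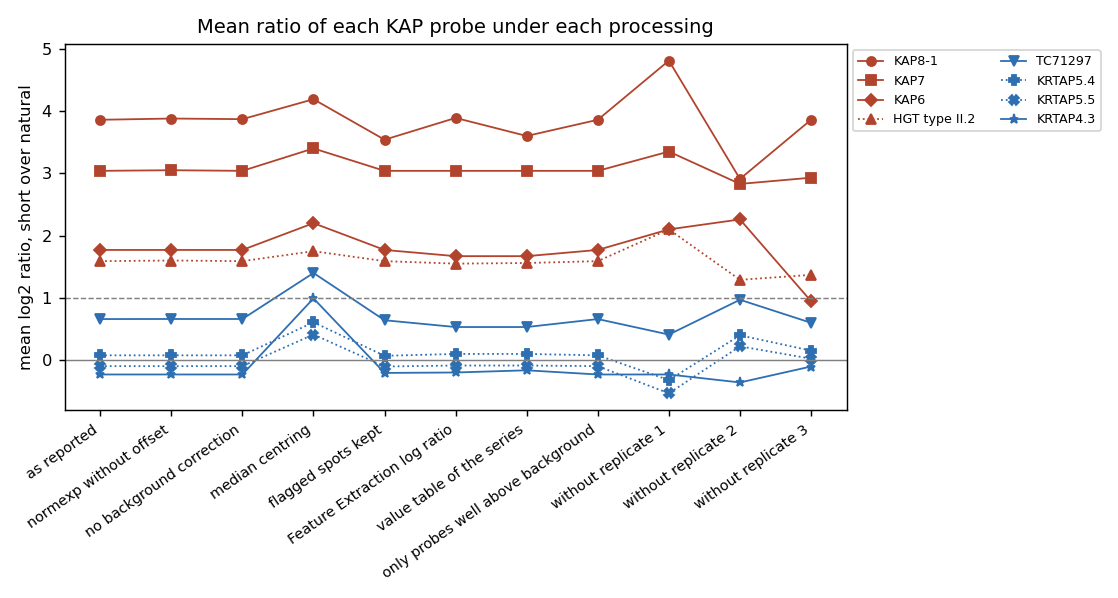
Mean log2 ratio (vertical axis) of each of the 8 KAP probes under each way of processing and with each array left out (horizontal axis), with lines joining the values of 1 probe and dotted lines for the related probes. KAP7 stays between 2.83 and 3.40 and KAP8-1 between 2.91 and 4.81, where both of the KAP8-1 limits are values of 1 array, and median centring raises the high sulfur probes by the most.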

How the data were processed

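Skin RNA of 6 goats was hybridised to 3 two-colour Agilent sheep arrays, per the labels with the test group in Cy5 and the control group in Cy3. The authors obtained the deposited spot and background intensity values with Feature Extraction 10.7.3.1, per the file headers, without normalization. The deposited files also hold the authors' background-subtracted and lowess-normalized intensity and its log10 ratio. The deposited value table holds the authors' log2 ratios, which for 99.96% to 100% of the 14958 probes with 1 spot equalled those of Cy5 over Cy3 processed signals within 0.001, with medians of 0.0012 to 0.0179.

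Backgrounds were corrected over all spots by normexp (offset 50) in limma 3.58.1 (R 4.3.3), controls were dropped, and each array was normalized by loess. A spot carrying 1 or more of 4 outlier flags was given no weight and no value. Values were averaged over the spots of a probe, and each probe with at least 2 arrays was tested with lmFit and eBayes against 0 (threshold 0.05), beside the 2-fold rule of the study's methods. Levels of single goats are loess and Aquantile normalized log2 intensities, which are not compared between probes. The members and lists were chosen with earlier results of these data known. All members were named, with the 5 leading keratin probes and, by distance, the 3 probes nearest to KAP6 and to KAP7. List genes were matched by symbol. The number of arrays limits the precision. The test was also run on simulated independent ratios that held no dye or intensity effect. That run cannot show how the test handles such effects here. Histology and quantitative PCR are not used here. Plots were made in matplotlib 3.10.9.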

Additional observations from a re-analysis of the deposited data

How the results depend on the processing

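The direction of KAP6, KAP7, KAP8-1 and TC64688 was the same under every alternative run. Their means were 0.95 to 2.26, 2.83 to 3.40, 2.91 to 4.81 and 1.29 to 2.10, where the limits of KAP8-1 are values of 1 array (without replicate 2 and without replicate 1). The number of members at least 2-fold higher was 2 to 4, with 2 without replicate 3, when KAP6 fell below the line, and 4 under median centring, when TC71297 passed, and with the Feature Extraction log ratios and the value table, when the BIIIB3 pseudogene, which is not well above background, passed (means of 1.14 and 1.86). The high glycine-tyrosine median was 2.40 with the related probes added, an alternative chosen after seeing the data, and 2.83 to 3.35 with 1 array left out. The high sulfur median was -0.0093 with the related probes, against 0.21 without them, 1.20 under median centring and 0.0901 to 0.306 with 1 array left out. The family difference was 2.10 to 3.30. KRTAP4.3, KRTAP5.4 and KRTAP5.5 changed sign between alternatives, within -0.36 to 0.99, -0.32 to 0.61 and -0.53 to 0.41.

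Over all probes, the limma count of 1 became 1880 under median centring, 0 with the log ratios of Feature Extraction, 14 with the value table, 0 without any 1 array (1605 to 2433 unadjusted) and 164 with separate channels and their correlation within spots. Without the pairing of the goats (no replicate block) it was 0, with 1085 unadjusted. The 64 higher probes became 115 without an offset, 293 under median centring, 150 with the Feature Extraction ratios and 358 with the value table, and the 62 lower probes became 118 and 116 with the latter. With 1 array left out they were 80 to 107 and 77 to 179. The cause of these shifts was not tested.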
